A study of Mus musculus with 32 samples.

Results

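The genes described here are 41 autophagy and lysosome genes, taken by symbol from the 54532 rows of a mouse gene count table, and all 41 were among the 17121 genes that passed the filter on low counts. Autophagy wraps cytoplasm, protein aggregates or mitochondria in a double membrane, the autophagosome, and delivers them to the lysosome, where acid hydrolases degrade them. The ULK kinase complex starts the process, a phosphatidylinositol 3-kinase complex marks the membrane, and 2 conjugation systems attach proteins of the Atg8 family (LC3 and GABARAP) to it. Cargo receptors tie ubiquitin-tagged cargo or mitochondria to the Atg8 proteins, and the transcription factors TFEB and TFE3 drive autophagy and lysosome genes. In skeletal muscle this pathway removes damaged mitochondria and protein, and it supplies amino acids during fasting.

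RNA was measured by mRNA sequencing in tibialis anterior, a fast muscle of the shin, of C57BL/6J mice. Old mice received BI01, named by the series as a senolytic (a drug meant to clear senescent cells), and were sampled 7 or 35 days after injury with barium chloride (written BaCl in the sample labels), a toxin that kills muscle fibres but spares the stem cells that rebuild them. Old and young mice received vehicle and were sampled 7 or 35 days after the same injury, or uninjured. Each of the 8 groups had 4 libraries, written as old BI01, old or young with the day, and libraries carry the number in the count table. The labels give neither the age nor the dose. They do not say that each library is a separate animal, so p-values rest on the spread between these samples. The names of the uninjured columns give PBS (a saline buffer) as the injection, although their sample titles say without injury. These columns are also named as part of the 35-day set. A comparison of day 7 with uninjured muscle therefore cannot be told apart from the collection set.

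Libraries held 14129350 to 30439358 counts, and the 41 genes took 0.356% to 0.834% of them. Levels are CPM, counts per 1e+06 of the library after TMM scaling, as mean ± SD (n = 4) or per library. Calls are genes whose Benjamini-Hochberg adjusted p, over all 17121 genes, was under 0.05 in edgeR's quasi-likelihood test. Marker sums of mature fast fibres were 188278 to 194932 CPM in old and 204543 to 258990 CPM in young uninjured muscle. Young uninjured libraries 1 and 3 stood apart for several of these genes, and counts that changed without them are given with and without both. In bulk muscle, fewer cells of a type and less RNA per cell cannot be told apart.

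A few promoters are shown, because TFEB and TFE3 bind the letters CACGTG in the wider motif of lysosome genes. The Lamp1 and Ctsd windows hold these letters, and those of Ulk1 and Sqstm1 do not. Whether the letters go with direction at day 7 was not tested, and the genes named here are examples. With TMM scaling Lamp1, Ctsd, Ulk1 and Sqstm1 were all called lower in young muscle. In old muscle Ctsd was not called. The window of Lamp2, which rose, has none of the letters, and that of Bnip3, which fell, has 1 match. When libraries were scaled by size only, Lamp1 and Ctsd turned positive in young muscle. Ulk1, Sqstm1 and Bnip3 then stayed called lower and Lamp2 higher. Each window is 300 bases from RefSeq (GRCm38.p6, the build of the files' mm10 coordinates), from 250 before the annotated gene start to 50 after it, and capitals mark CACGTG, TCACGTGA and GTCACGTG, which overlap.
Lamp1, chr8:13158911-13159210, plus strand: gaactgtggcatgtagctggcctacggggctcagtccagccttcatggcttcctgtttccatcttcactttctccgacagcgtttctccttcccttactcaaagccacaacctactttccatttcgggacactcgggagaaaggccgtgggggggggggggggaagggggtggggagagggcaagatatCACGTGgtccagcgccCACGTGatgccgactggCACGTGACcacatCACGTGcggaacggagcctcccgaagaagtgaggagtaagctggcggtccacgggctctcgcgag
Ctsd, chr7:142387778-142388077, minus strand: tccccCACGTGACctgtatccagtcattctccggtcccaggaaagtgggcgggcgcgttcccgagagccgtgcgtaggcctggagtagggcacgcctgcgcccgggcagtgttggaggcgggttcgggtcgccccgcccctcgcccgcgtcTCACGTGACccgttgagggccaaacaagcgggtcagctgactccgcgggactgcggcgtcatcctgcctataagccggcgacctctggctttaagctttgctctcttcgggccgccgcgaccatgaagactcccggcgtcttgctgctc
Ulk1, chr5:110810032-110810331, minus strand: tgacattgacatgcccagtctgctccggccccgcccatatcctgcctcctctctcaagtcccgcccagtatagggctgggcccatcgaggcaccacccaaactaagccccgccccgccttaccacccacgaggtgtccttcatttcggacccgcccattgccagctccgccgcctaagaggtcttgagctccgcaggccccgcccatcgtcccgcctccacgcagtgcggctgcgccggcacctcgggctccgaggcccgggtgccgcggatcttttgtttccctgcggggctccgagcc
Sqstm1, chr11:50210771-50211070, minus strand: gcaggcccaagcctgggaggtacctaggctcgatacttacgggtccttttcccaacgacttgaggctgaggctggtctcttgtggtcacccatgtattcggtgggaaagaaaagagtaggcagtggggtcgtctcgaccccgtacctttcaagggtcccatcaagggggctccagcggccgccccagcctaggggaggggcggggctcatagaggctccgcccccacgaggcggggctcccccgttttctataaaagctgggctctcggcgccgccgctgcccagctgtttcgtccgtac
Searched on both strands, CACGTG was in 8 of the 33 members that matched a RefSeq promoter (24.2%), against 8.09% of 27025 genes with RefSeq windows of the same length. A gene counted when any of its windows held the letters. The 8 were Atg14, Atg3, Atg5, Atg7, Bnip3, Lamp1, Ctsd and Ctsl. The windows of Atg14, Atg7 and Ctsl lay wholly inside the gene models of the count table, downstream of their starts. The Lamp1 window held 4 matches and the Ctsd window 2. TCACGTGA was in 2 of the 33 (6.06%, against 1.12% of the 27025 genes) and GTCACGTG or its reverse complement in 5 (15.2%, against 2.55%). By role, 0 of 4 matched genes of the initiation complex, 3 of 4 of the conjugation genes and 3 of 4 of the lysosome genes held CACGTG.

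In uninjured muscle the most abundant members per kilobase of gene model were Sqstm1, Lamp1, Ctsd and Map1lc3a. Sqstm1, whose protein p62 carries ubiquitin-tagged cargo, stood at 272 CPM per kilobase in old and 492 in young muscle. Lamp1, a major protein of the lysosomal membrane, stood at 221 CPM per kilobase in old and 221 in young muscle. The lowest members were Tfe3 (1.18 CPM per kilobase) in old and Atg4c (1.94) in young muscle. In old muscle at day 7 the highest per kilobase was Ctsb, a lysosomal cysteine protease, at 188 CPM per kilobase, and Sqstm1 stood at 51.7.

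**Figure D1:**
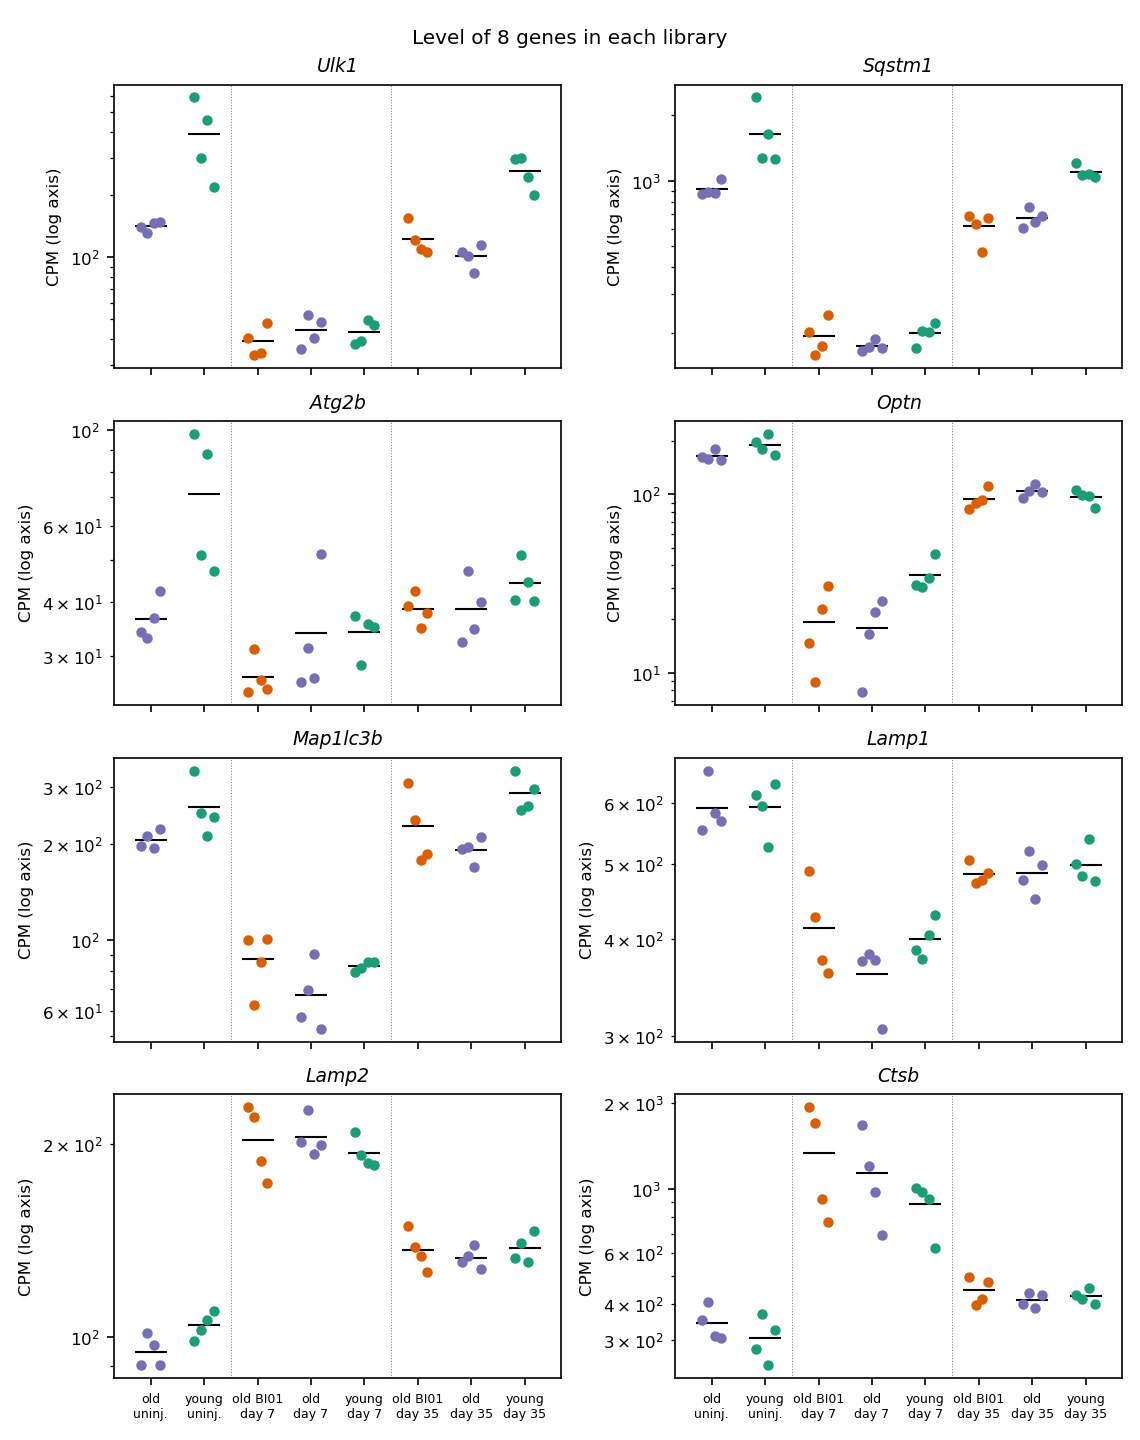
Level of 8 genes in each library, as CPM on log axes. Points are libraries, black lines are group means, and colours mark old BI01 (orange), old vehicle (purple) and young vehicle (green). Ulk1 lay between 33.4 and 52.6 CPM in all 12 libraries of day 7 and between 218 and 591 CPM in young uninjured muscle, while Lamp2 and Ctsb were higher at day 7 than in uninjured muscle of either age.

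At day 7 after injury most autophagy genes were lower than in uninjured muscle, and Ctsb and Lamp2 were higher. In old muscle 28 of the 41 were called lower and 4 higher, and in young muscle 27 lower and 3 higher. Among all genes tested, 29.8% were called lower and 34.4% higher in old muscle, and 27.5% lower and 33.3% higher in young muscle. The median log2 fold change of the 41 was -0.62 in old and -0.70 in young muscle, while that of all genes was 0.14 in old and 0.17 in young muscle. These directions depend on the TMM factors. When libraries were scaled by their size only, the median of all genes shifted by 1.01 in old and by 0.88 in young muscle. The calls among the 41 were then 10 lower and 19 higher in old muscle, where 10.3% of all genes were lower and 62.9% higher, and 12 lower and 15 higher in young muscle, where 8.69% were lower and 59.6% higher. Of the lower calls, 13 of 28 in old and 11 of 27 in young muscle turned sign with that scaling, whereas 10 in old and 12 in young muscle stayed called lower. Those that stayed called lower in both ages were Ulk1, Ulk2, Atg9a, Atg4d, Map1lc3b, Sqstm1, Optn, Bnip3 and Tfeb. Of the lower calls, 23 were shared, which is 82.1% of those in old and 85.2% of those in young muscle. The sharing of lower calls over all genes was not counted.

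**Figure D2:**
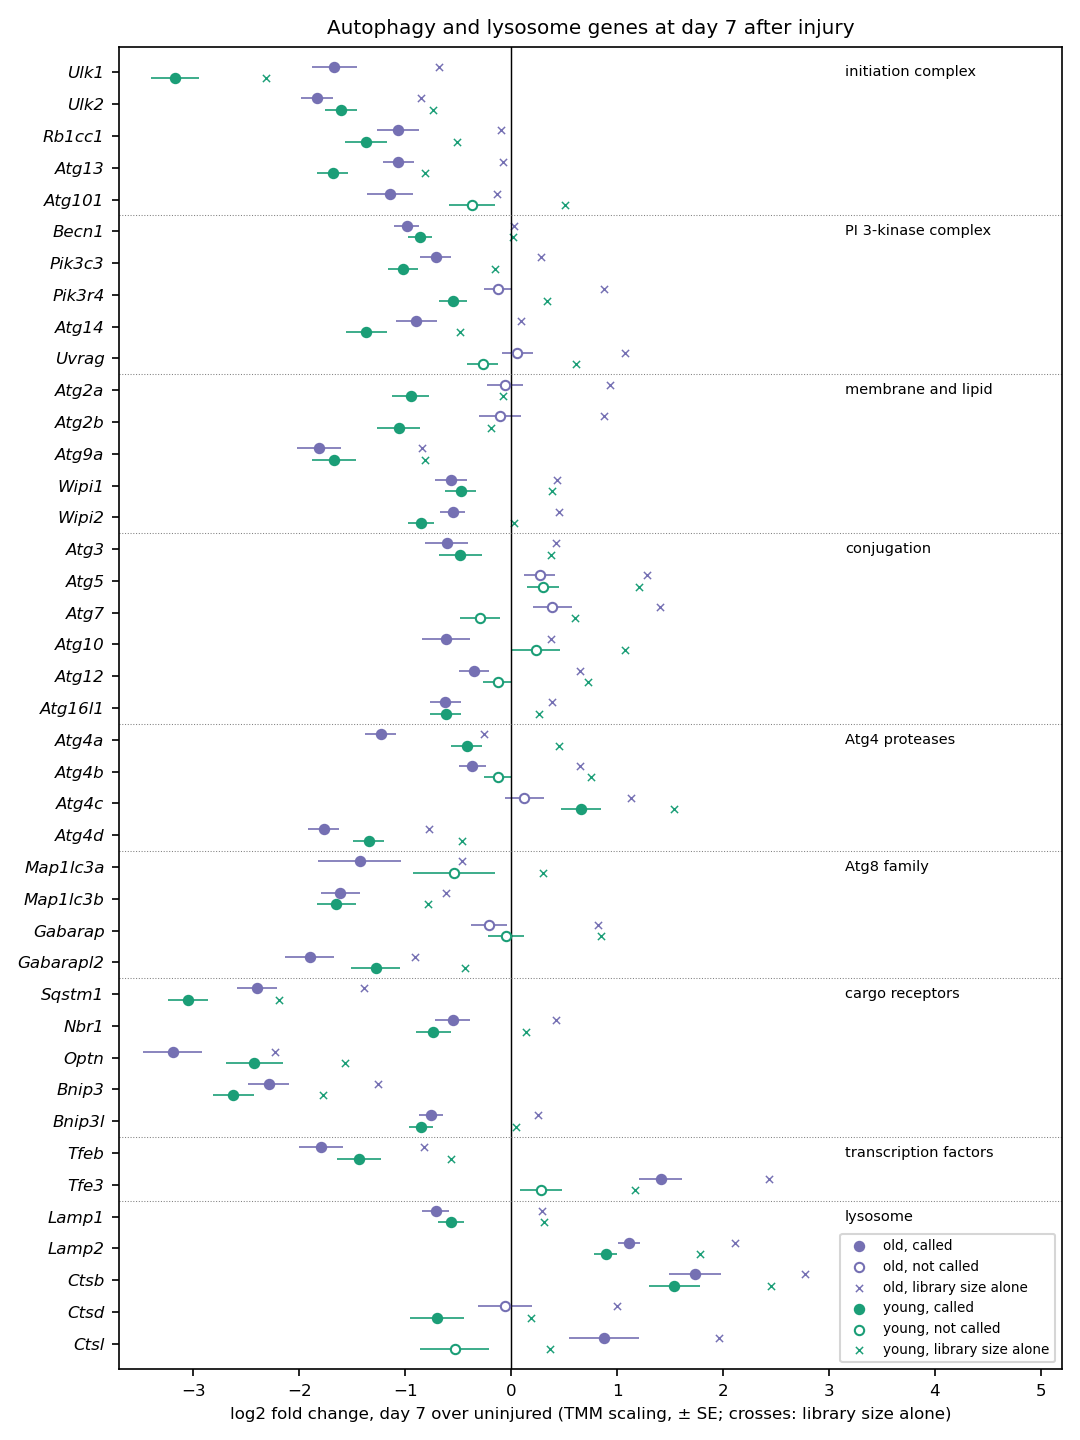
Log2 fold change at day 7 over uninjured muscle for the 41 genes, ordered by role, in old (purple) and young (green) muscle. Points are edgeR values with TMM scaling ± SE, filled where called, and crosses are values with library size alone. The cargo receptor genes Sqstm1, Optn and Bnip3 lie between -3.20 and -2.29 in both ages, and Ctsb and Lamp2 lie between 0.89 and 1.74.

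Genes of the initiation complex were lower. Of its 5 genes, 5 in old and 4 in young muscle were called lower, and 2 in old and 4 in young muscle when scaled by library size. Ulk1 (ENSMUSG00000029512, chromosome 5, 110784488 to 110810097), the kinase that starts autophagy, had 35.8, 52.6, 40.5 and 48.3 CPM in old muscle at day 7, against 139, 131, 145 and 148 CPM in old uninjured muscle. Young muscle had 38.0, 39.3, 49.6 and 47.0 CPM at day 7, against 591, 301, 462 and 218 CPM uninjured. Day 7 libraries of both ages lay below every uninjured library, and they were alike at day 7 although uninjured young muscle was higher than uninjured old muscle. The log2 fold change was -1.67 in old (SE 0.21, adjusted p = 5.56e-08) and -3.18 in young muscle (SE 0.22, adjusted p = 1.16e-12, edgeR). Its paralog Ulk2 fell by 1.83 on the log2 scale in old (SE 0.15, adjusted p = 2.49e-11) and by 1.61 in young muscle (SE 0.15, adjusted p = 3.11e-10, edgeR). Atg13, a scaffold of the complex, fell by 1.06 in old and by 1.69 in young muscle (SE 0.15 each, adjusted p = 2.71e-07 and 9.31e-11). Atg101, the partner of Atg13, was called lower in old muscle, at 12.97 ± 4.17 CPM at day 7 and 28.6 ± 2.55 CPM uninjured.

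The cargo receptors had the lowest median of the roles with 5 or more genes, -2.29 in old and -2.43 in young muscle, and all 5 were called lower in both ages. With library size alone 3 of the 5 were called lower in both ages and Nbr1 was called higher in old muscle. Sqstm1 (ENSMUSG00000015837, chromosome 11, 50199366 to 50210827) had 165, 173, 187 and 170 CPM in old muscle at day 7, against 873, 884, 881 and 1020 CPM in old uninjured muscle. In young muscle it had 170, 204, 201 and 222 CPM at day 7, against 2421, 1280, 1639 and 1259 CPM uninjured. No day 7 library of either age reached its uninjured group. The log2 fold change was -2.40 in old (SE 0.19, adjusted p = 6.72e-12) and -3.05 in young muscle (SE 0.19, adjusted p = 1.25e-13).

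Optn (ENSMUSG00000026672, chromosome 2, 5020642 to 5064051) encodes optineurin, a receptor for damaged mitochondria and bacteria. It had 7.80, 16.5, 22.1 and 25.3 CPM in old muscle at day 7, against 162, 157, 180 and 157 CPM in old uninjured muscle. Young muscle had 31.2, 30.5, 34.1 and 46.1 CPM at day 7, against 196, 181, 218 and 167 CPM uninjured. All day 7 values were far below the uninjured ones, and old library 7 was the lowest of all 32 libraries. The log2 fold change was -3.20 in old (SE 0.28, adjusted p = 6.43e-11) and -2.43 in young muscle (SE 0.27, adjusted p = 6.64e-09, edgeR). Bnip3, a receptor on mitochondria that hypoxia induces, fell by 2.29 in old (SE 0.19, adjusted p = 2.86e-11) and by 2.62 in young muscle (SE 0.20, adjusted p = 3.4e-12). Its paralog Bnip3l fell by less, by 0.76 in old and by 0.85 in young muscle, and both values turned positive with library size alone.

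Among the phosphatidylinositol 3-kinase genes, 3 of 5 in old and 4 of 5 in young muscle were called lower. With library size alone 0 in old and 1 in young muscle were called lower, and 2 in each age higher. Becn1, a regulatory subunit on which many autophagy signals meet, had 27.0 ± 1.79 CPM in old muscle at day 7 and 53.6 ± 6.25 CPM uninjured. In young muscle it had 25.8 ± 2.08 CPM at day 7 and 46.9 ± 5.52 CPM uninjured. Its fold change was near 0 in both ages when scaled by library size (0.02 in old and 0.01 in young muscle). Of the genes for membrane supply and lipid effectors, 3 of 5 in old and 5 of 5 in young muscle were called lower. Scaled by library size, 1 was lower and 4 higher in old, and 1 lower and 1 higher in young muscle. With that scaling 62.9% of all genes in old and 59.6% in young muscle were called higher. Atg9a, a scramblase of the vesicles that seed the autophagosome, fell by 1.81 in old (SE 0.21, adjusted p = 8.98e-09) and by 1.67 in young muscle (SE 0.21, adjusted p = 4.34e-08). The lipid transfer genes Atg2a and Atg2b were called lower in young muscle (-0.95 and -1.06) and not in old muscle, where Atg2b had 33.9 ± 12.1 CPM at day 7 and 36.5 ± 4.23 CPM uninjured.

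The conjugation genes attach Atg8 proteins to lipid. Of 6, 4 were called lower in old and 2 in young muscle, and with library size alone none was called lower and 4 in each age were called higher. That last count lay near the share of all genes called higher with library size alone, 62.9% in old and 59.6% in young muscle. Among the Atg4 proteases, which trim and release Atg8 proteins, 3 of 4 were called lower in old muscle, and 2 lower and 1 higher in young muscle. Library size alone gave 1 lower and 2 higher in old, and 1 lower and 3 higher in young muscle. Atg4c, the gene that was higher in young muscle at day 7, had 10.7, 10.6, 8.31 and 11.5 CPM at day 7, against 5.41, 8.28, 5.43 and 6.95 CPM uninjured. The lowest day 7 library was only just above the highest uninjured one, and the log2 fold change was 0.66 (SE 0.19, adjusted p = 0.00319). Without young uninjured libraries 1 and 3 it was 0.43 and no longer called (adjusted p = 0.1065).

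Of the Atg8 family, 3 of 4 genes were called lower in old and 2 of 4 in young muscle, or 2 in old and 1 in young muscle with library size alone. Map1lc3b (LC3B), the usual marker of autophagosomes, fell by 1.61 in old (SE 0.18, adjusted p = 7.07e-09) and by 1.65 in young muscle (SE 0.18, adjusted p = 5.55e-09). Gabarapl2 fell by 1.90 in old (SE 0.23, adjusted p = 2.29e-08) and by 1.28 in young muscle. Map1lc3a was called lower in old muscle (-1.43, SE 0.39, adjusted p = 0.00224) and not in young muscle (-0.54, 95% interval -1.33 to 0.25). In old muscle its day 7 libraries ranged from 31.3 to 195 CPM, and without library 9 the log2 fold change was -2.25. Gabarap was not called in either age, with a log2 fold change of -0.21 (95% interval -0.56 to 0.13) in old and -0.04 (-0.39 to 0.30) in young muscle, and library size alone called it higher in both.

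The transcription factors were called in opposite directions in old muscle. Tfeb averaged 33.0 ± 10.9 CPM in old muscle at day 7 and 114 ± 8.73 CPM uninjured. In young muscle it averaged 42.0 ± 10.5 CPM at day 7 and 114 ± 18.7 CPM uninjured. It was called lower in both, at -1.79 in old and -1.44 in young muscle. Tfe3 had 36.8, 26.6, 22.6 and 30.9 CPM in old muscle at day 7, against 9.69, 12.8, 10.2 and 11.1 CPM in old uninjured muscle, with no overlap. It rose by 1.41 on the log2 scale (SE 0.20, adjusted p = 3.95e-07). In young muscle Tfe3 was not called (0.28, 95% interval -0.12 to 0.69), with 20.1 to 25.2 CPM at day 7 and 10.1 to 25.7 CPM uninjured. Without young uninjured library 3 it was called, at 0.48 (adjusted p = 0.041).

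The lysosome genes split by member. Ctsb (ENSMUSG00000021939, chromosome 14, 63122462 to 63145923) had 1678, 1204, 975 and 693 CPM in old muscle at day 7, against 350, 404, 308 and 303 CPM in old uninjured muscle. Young muscle had 1008, 980, 928 and 624 CPM at day 7, against 278, 369, 244 and 325 CPM uninjured. The groups did not overlap, and the day 7 libraries varied more than 1.5-fold in each age. It rose by 1.74 in old (SE 0.25, adjusted p = 3.41e-07) and by 1.54 in young muscle (SE 0.24, adjusted p = 2.57e-06).

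Lamp2 (ENSMUSG00000016534, chromosome X, 38401357 to 38456454), the lysosomal membrane protein lost in Danon disease, had 201, 226, 193 and 199 CPM in old muscle at day 7, against 90.2, 101, 97.0 and 90.2 CPM in old uninjured muscle. In young muscle it had 209, 192, 187 and 186 CPM at day 7, against 98.4, 102, 106 and 110 CPM uninjured. Its libraries were tight within each group, and the rise was 1.11 in old (SE 0.11, adjusted p = 2.98e-10) and 0.89 in young muscle (SE 0.11, adjusted p = 2.07e-08). Lamp1, its paralog, went the other way and was called lower in both ages, at 360 ± 35.9 CPM in old muscle at day 7 and 590 ± 47.7 CPM uninjured, and at 399 ± 23.1 CPM in young muscle at day 7 and 592 ± 47.0 CPM uninjured, though with library size alone its fold change was positive in both (0.29 in old and 0.31 in young muscle).

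Ctsl, a cysteine protease, had 405, 118, 165 and 102 CPM in old muscle at day 7, against 88.6, 116, 101 and 124 CPM in old uninjured muscle, so that the groups overlapped. Its call in old muscle (0.88, SE 0.33, adjusted p = 0.0207) rested on library 7, without which the log2 fold change was 0.25 (adjusted p = 0.431). Without old uninjured library 6 it was 0.79 (adjusted p = 0.0579). In young muscle Ctsl was not called (-0.53, 95% interval -1.20 to 0.14). Ctsd, the main aspartic protease of the lysosome, was called lower in young muscle (-0.70, SE 0.26, adjusted p = 0.0185). That call ended without young uninjured library 1 (-0.61) or young day 7 library 4 (-0.64). In old muscle Ctsd was at -0.05 (95% interval -0.57 to 0.46), with libraries at day 7 between 146 and 609 CPM.

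Markers of other cells moved in the same libraries. Of 12 macrophage genes, 11 were called higher at day 7 in each age, and their summed level was 1049 to 2750 CPM in old and 794.5 to 1442 CPM in young muscle at day 7, against 41.3 to 236 CPM in old and 33.4 to 166 CPM in young uninjured muscle. Of 8 genes of mature fast fibres, 7 in old and 5 in young muscle were called lower, with sums of 10274 to 63386 CPM in old and 67006 to 142209 CPM in young muscle at day 7. The old day 7 library with the highest macrophage sum, library 7, also had the highest Ctsb and Ctsl, and it had the lowest sum of fast fibre markers and the lowest Optn. In young muscle at day 7, library 7 had the lowest macrophage sum and the lowest Ctsb, and the highest fast fibre sum and Optn. Markers of fibroblasts (6 of 6), regenerating fibres (5 of 5) and satellite cells (4 of 4) were called higher as well in both ages. Of 4 endothelial genes, 2 were called higher and 1 lower in old and 3 higher in young muscle. Of 4 tested neutrophil genes, 1 was called higher in old (median -0.22) and 2 in young muscle (median 2.43). Among all genes 34.4% in old and 33.3% in young muscle were called higher. The part of changed cell content in the changes at day 7 was not tested.

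**Figure D3:**
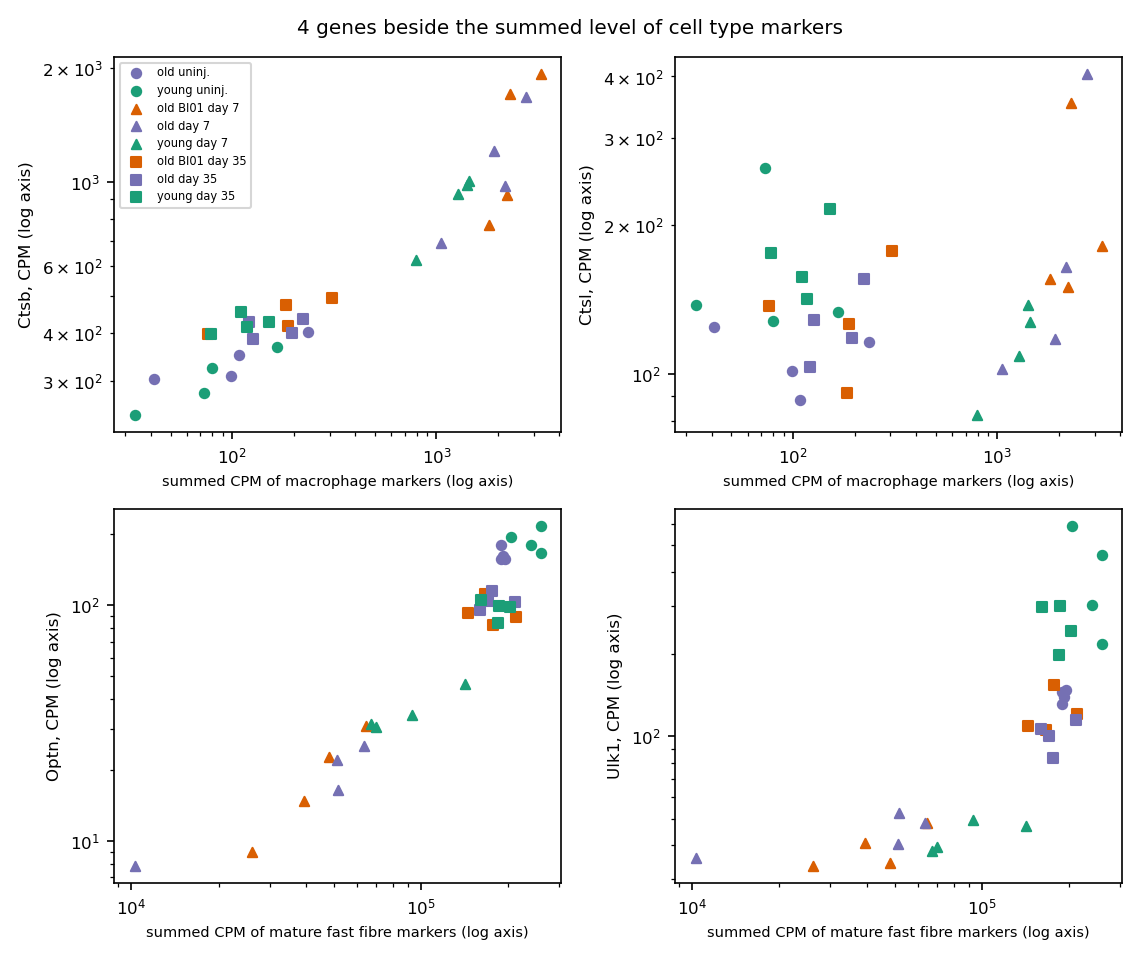
Level of 4 genes in each library (vertical axes, CPM, log scale) against the summed CPM of macrophage or mature fast fibre markers (horizontal axes, log scale). Circles are uninjured, triangles day 7 and squares day 35, in old BI01 (orange), old vehicle (purple) and young vehicle (green) muscle. The day 7 libraries hold the highest Ctsb, up to 1925 CPM, beside the highest macrophage sums, up to 3240 CPM, and the lowest Optn, down to 7.80 CPM, beside the lowest fast fibre sums.

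Genes of the same pathway outside the 41 were taken from 5 lists of 149 genes, 147 of them tested. The lysosomal hydrolases and their activators rose together at day 7. Of 40, 33 were called higher and 3 lower in old muscle (median log2 fold change 1.66), and 31 higher and 4 lower in young muscle (median 1.29). Scaled by library size these counts were 37 and 1 in old and 39 and 1 in young muscle. Of all genes, 34.4% in old and 33.3% in young muscle were called higher with TMM scaling, and 62.9% and 59.6% with library size. In old muscle Ctss, a cysteine protease of antigen-presenting cells, stood at 277 ± 122 CPM at day 7 and 20.1 ± 21.7 CPM uninjured (3.78, SE 0.72, adjusted p = 5.6e-05). Ctsh (3.62) and Lipa, the acid lipase (3.57), rose too. In young muscle Acp5, the acid phosphatase of osteoclasts and macrophages, rose by 4.74, Ctss by 4.00 and Ctsk by 3.68. Gaa, which breaks down glycogen in the lysosome, was the steepest fall of the list in both ages, at 107 ± 20.5 CPM in old muscle at day 7 and 427 ± 33.1 CPM uninjured, and 158 ± 25.9 CPM in young muscle at day 7 and 823 ± 242 CPM uninjured (-2.38).

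With TMM scaling the other lists were mixed or lower. Among all genes 34.4% were higher and 29.8% lower in old, and 33.3% higher and 27.5% lower in young muscle. With library size alone these shares were 62.9% and 10.3% in old, and 59.6% and 8.69% in young muscle. The TMM counts of the lysosomal membrane genes lay near the shares of all genes and are not read as a trait of that list. Of 19 lysosomal membrane genes, 7 were called higher and 6 lower in old and 5 higher and 6 lower in young muscle, or 16 and 1 in old and 12 and 2 in young muscle with library size alone. Laptm5, a membrane protein of blood cells, rose by 4.28 in old and 4.32 in young muscle, and Npc1, the cholesterol exporter, fell by 2.55 in young muscle. Of 18 subunits and partners of the vacuolar ATPase, which acidifies the lysosome, 5 were higher and 9 lower in old and 1 higher and 6 lower in young muscle, or 13 and 1 in old and 11 and 0 in young muscle with library size alone. Atp6v0d2, an isoform of osteoclasts and macrophages, rose by 3.32 in old and 5.21 in young muscle, and Atp6v0e2 fell by 3.01 in old and 1.52 in young muscle.

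Of 25 nutrient sensing genes, 4 were called higher and 16 lower in old and 3 higher and 12 lower in young muscle, or 13 and 5 in old and 12 and 4 in young muscle with library size alone. Prkaa2, the AMPK catalytic subunit of muscle fibres, fell by 2.26 in old (SE 0.27, adjusted p = 1.77e-08) and by 1.96 in young muscle (SE 0.27, adjusted p = 2.32e-07). Rragd, a Rag GTPase, fell by 2.54 in old muscle and Fnip2, a partner of folliculin, rose by 2.10 in old and 1.65 in young muscle. Of 45 other autophagy genes, 6 were called higher and 29 lower in old and 4 higher and 30 lower in young muscle, or 23 and 5 in old and 17 and 12 in young muscle with library size alone. For both lists the share called higher with library size alone was below that of all genes, 62.9% in old and 59.6% in young muscle. Retreg1, a receptor for autophagy of the endoplasmic reticulum, fell by 3.09 in old and 4.02 in young muscle. Pink1, the kinase that marks damaged mitochondria, stood at 116 ± 46.0 CPM in old muscle at day 7 and 1128 ± 106 CPM uninjured (-3.29), and in young muscle Gabarapl1, an Atg8 family gene outside the 41, fell by 3.00. Rubcn, an inhibitor of autophagosome maturation, rose by 0.54 in young muscle.

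**Figure D4:**
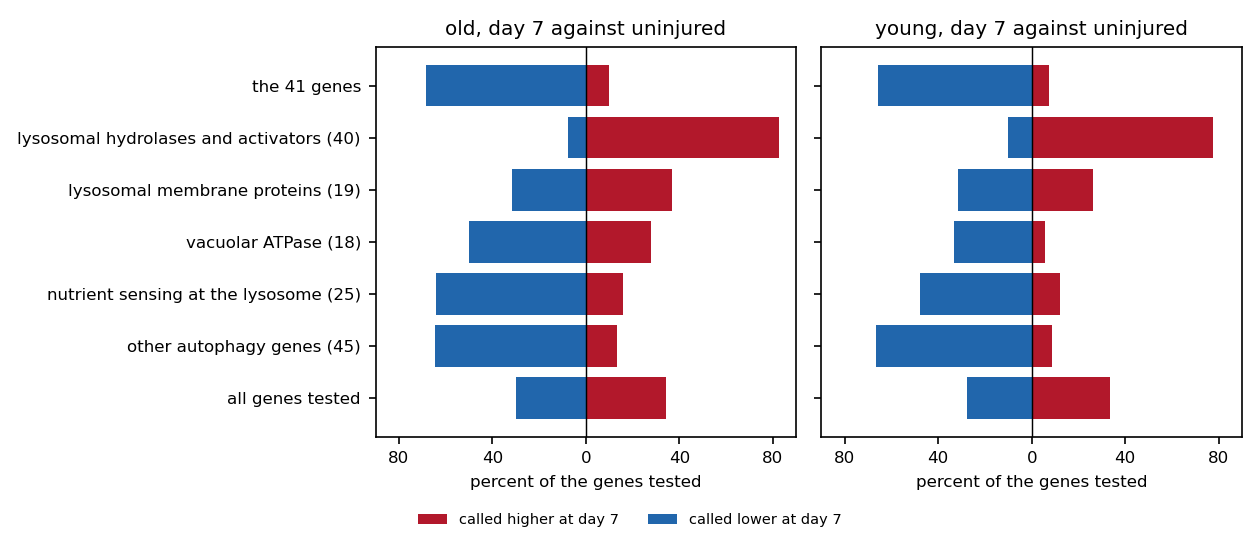
Percent of the genes tested that were called higher (red, to the right) or lower (blue, to the left) at day 7 against uninjured muscle with TMM scaling, for the 41 genes, 5 other lists (genes tested in brackets) and all genes tested, in old (left panel) and young (right panel) muscle. The hydrolases stand to the right in both ages and the 41 genes to the left. With library size alone, more of the 41 were called higher than lower in both ages.

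Old uninjured muscle was set against young uninjured muscle for the effect of age. Ulk1 and 10 more of the genes were lower in old muscle. Of the 41, 11 were called lower and 0 higher, against 7.65% of all genes lower and 5.79% higher. The median log2 fold change of the 41 was -0.21 and that of all genes 0.09. Scaling by library size shifted the median of all genes by 0.20, and 8 of the 41 were then called lower and 5 higher, against 3.22% of all genes lower and 11.4% higher. The count changed without young uninjured libraries 1 and 3: without both, chosen after their values were seen, 1 was called lower (Ulk1) and 0 higher, with 2 young libraries left. The share of all genes called in that fit is not given here. An effect of these 2 libraries therefore cannot be told apart from having fewer libraries.

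Ulk1 had 139, 131, 145 and 148 CPM in old muscle, against 591, 301, 462 and 218 CPM in young muscle. The old libraries lay close together below every young one, and the young libraries ranged widely, from 218 to 591 CPM. The log2 fold change was -1.48 (SE 0.21, adjusted p = 4.94e-05, edgeR), or -0.88 (adjusted p = 0.02) without young libraries 1 and 3. Atg2b, which moves lipid into the growing membrane, had 33.9, 33.0, 36.7 and 42.4 CPM in old muscle, against 98.0, 51.3, 88.2 and 47.1 CPM in young muscle. Young libraries 1 and 3 were about as high as each other, and libraries 2 and 4 were only just above the old ones (-0.96, SE 0.20, adjusted p = 0.00174, or -0.43 and 0.387 without libraries 1 and 3).

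By role, 3 of 5 genes of the initiation complex (not Ulk2 or Atg101), 3 of 5 of the kinase complex and 3 of 5 of the membrane and lipid genes were lower in old muscle. None of the conjugation genes, Atg4 proteases, Atg8 genes or lysosome genes was called. Sqstm1 averaged 914 ± 70.5 CPM in old muscle and 1650 ± 543 CPM in young muscle. The log2 fold change was -0.85 (SE 0.18, adjusted p = 0.00189). Pik3c3, the catalytic subunit of the kinase complex, averaged 22.1 ± 2.54 CPM in old muscle and 39.0 ± 6.81 CPM in young muscle. Its log2 fold change was -0.82 (SE 0.14, adjusted p = 0.000359). Rb1cc1, the scaffold of the ULK complex (-0.81, SE 0.20, adjusted p = 0.00584), and Atg2a (-0.81, SE 0.17, adjusted p = 0.002) fell as well. The other lower calls were Atg13, Atg14, Tfe3, Wipi2 and Pik3r4. All 11 except Ulk1 lost their call without young libraries 1 and 3, when 2 young libraries were left, and all of these values stayed below 0, from -0.59 (Pik3c3) to -0.23 (Wipi2 and Tfe3). Pik3c3 was at most 24.0 CPM in old libraries, against 34.3 and 32.1 CPM in young libraries 2 and 4, and Pik3r4 at most 23.1 CPM in old libraries, against 28.5 and 30.3 CPM in those young libraries. The calls of Wipi2 (-0.29) and Pik3r4 (-0.45) also ended without young library 1 alone, that of Pik3r4 without young library 3 (-0.40) or old library 7 (-0.44), and that of Tfe3 without young library 1 (-0.64) or 3 (-0.54).

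Of the usual markers of the pathway, Ulk1 and Sqstm1 were called lower in old muscle and the others were not called. Map1lc3b averaged 206 ± 12.98 CPM in old muscle and 260 ± 54.6 CPM in young muscle (-0.34, 95% interval -0.70 to 0.03). Ctsd averaged 396 ± 26.6 CPM in old muscle and 507 ± 85.9 CPM in young muscle (-0.35, 95% interval -0.88 to 0.17). Lamp1 averaged 590 ± 47.7 CPM in old muscle and 592 ± 47.0 CPM in young muscle. Tfeb averaged 114 ± 8.73 CPM in old muscle and 114 ± 18.7 CPM in young muscle. Becn1 averaged 53.6 ± 6.25 CPM in old muscle and 46.9 ± 5.52 CPM in young muscle (0.19, 95% interval -0.04 to 0.43). Of the 45 other autophagy genes 13 were called lower and 1 higher, or 8 lower and 3 higher when scaled by library size. Among all genes 7.65% were lower and 5.79% higher, or 3.22% lower and 11.4% higher with library size. Gabarapl1 averaged 40.2 ± 8.33 CPM in old muscle and 145 ± 85.7 CPM in young muscle (-1.85). Zfyve1, a marker of the membrane from which autophagosomes form, averaged 44.8 ± 3.19 CPM in old muscle and 152 ± 69.0 CPM in young muscle (-1.76). Retreg1 averaged 244 ± 25.8 CPM in old muscle and 808 ± 471 CPM in young muscle (-1.72). Without young libraries 1 and 3 these values were -1.22, -1.06 and -1.02, and Retreg1 was no longer called (adjusted p = 0.067). Rubcn was higher in old muscle (0.51, adjusted p = 0.0164), a call that ended without old library 7 (0.48) or without young libraries 1 and 3 (0.61). Of the 40 hydrolases only Manba (0.97) and Gaa (-0.95) were called, both lost without young libraries 1 and 3. Among marker lists, 4 of 5 genes of regenerating fibres were called higher in old uninjured muscle, with sums of 92.0 to 1003 CPM in old and 61.7 to 95.6 CPM in young muscle. Of 4 tested neutrophil genes 2 were called higher in old muscle, with sums of 1.60 to 8.41 CPM in old and 0.579 to 1.10 CPM in young muscle over the list of 6 genes, and 1 of 6 fibroblast genes was called higher. Their part in the difference by age was not tested.

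At day 35 after injury old muscle also had less Ulk1 and Sqstm1 than young muscle, in libraries separate from the uninjured ones. Both sets carry the same column numbers within each age, and the labels do not say whether a number marks an animal. These comparisons may therefore not be independent. Of the 41, 6 were called lower and 1 higher, against 1.79% of all genes lower and 1.72% higher, with a median of -0.13 over the 41 and 0.01 over all genes. Ulk1 had 106, 101, 83.4 and 115 CPM in old muscle, against 298, 300, 243 and 199 CPM in young muscle. All old libraries lay below all young ones, by -1.36 on the log2 scale (SE 0.21, adjusted p = 0.000164). Sqstm1 had 607, 761, 649 and 687 CPM in old muscle, against 1214, 1059, 1071 and 1045 CPM in young muscle. These groups did not overlap either (-0.70, SE 0.18, adjusted p = 0.0218).

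Pik3c3 fell by 0.67 (SE 0.14, adjusted p = 0.00528) and Atg13 by 0.63 (SE 0.15, adjusted p = 0.0116). Atg14, which directs the kinase complex to autophagy, was at -0.68 (adjusted p = 0.0414) and Wipi2, which reads the lipid mark, at -0.44 (adjusted p = 0.0332). Atg4c had 12.96, 12.5, 11.1 and 12.2 CPM in old muscle, against 7.94, 6.27, 7.22 and 7.99 CPM in young muscle. Its log2 fold change was 0.73 (SE 0.19, adjusted p = 0.0208). Calls of Ulk1 and Pik3c3 were kept whichever library was left out. Those of Atg14 and Wipi2 ended whichever of the 8 libraries was left out (-0.75 to -0.60 and -0.46 to -0.41), that of Atg13 without young library 1 (-0.54), that of Sqstm1 when young library 1 or any of old libraries 6, 8 and 9 was left out (-0.71 to -0.65), and that of Atg4c when young library 2 or 3 or old library 6 or 7 was (0.66 to 0.72). All 6 lower genes at day 35 were also among the 11 of uninjured muscle, 100% of the list at day 35 and 54.5% of the uninjured list. The same overlap over all genes was not counted, so the sharing is not read as a trait of these genes. Gabarapl1 (-1.74), Zfyve1 (-1.43), Retreg1 (-1.36) and the sestrin gene Sesn1 (-1.34) were lower as well, and Rubcn (0.74) and Manba (0.73) higher. The call of Manba ended when old library 7 or 9 or young library 1, 2 or 4 was left out (0.65 to 0.73). Of the marker lists, 1 of 4 tested neutrophil genes was called higher in old muscle at day 35 (sums over the list of 6 genes of 2.11 to 4.21 CPM in old and 0.627 to 0.904 CPM in young muscle), and none of the macrophage, fibre, fibroblast, endothelial or satellite cell genes was called. Their part in these values was not tested.

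At day 7, Ulk1 and Sqstm1, which were lower in old uninjured muscle, were not called between the ages. Ulk1 averaged 44.3 ± 7.58 CPM in old muscle and 43.5 ± 5.70 CPM in young muscle. Sqstm1 averaged 174 ± 9.36 CPM in old muscle and 199 ± 21.4 CPM in young muscle. Of the 41, 3 were called lower in old muscle and 0 higher, against 2.18% of all genes lower and 0.251% higher. Scaling by library size shifted the median of all genes by 0.32 and left 0 of the 41 called, against 0.596% of all genes lower and 3.56% higher. Optn had 7.80, 16.5, 22.1 and 25.3 CPM in old muscle, against 31.2, 30.5, 34.1 and 46.1 CPM in young muscle, with no overlap. The old level was at -0.99 on the log2 scale relative to young (SE 0.26, adjusted p = 0.0397). Atg4a had 14.4, 21.8, 22.1 and 28.6 CPM in old muscle, against 32.6, 32.8, 31.6 and 41.7 CPM in young muscle. This was -0.67 on the log2 scale (SE 0.15, adjusted p = 0.0174). Pik3c3 was lower too (-0.51, SE 0.14, adjusted p = 0.049).

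None of these 3 calls held whichever library was left out. Optn was no longer called when old library 7 (-0.74) or 8 (-0.95) was left out, nor without young library 7 (-0.84) or 6, Atg4a without young library 7 (-0.58) or old library 7 (-0.52), and Pik3c3 when any one of 5 libraries was left out (young 4, 6 or 7, old 7 or 10, -0.56 to -0.41). Fast fibre marker sums were lower in every old library than in any young one at day 7, 10274 to 63386 CPM in old and 67006 to 142209 CPM in young muscle, although none of the 8 genes was called. Their part in the values of Optn and Atg4a was not tested.

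The response to injury at day 7 was compared between the ages as a difference of log2 fold changes, old minus young. Of the 41, 4 were called higher and 1 lower, against 3.22% of all genes higher and 4.48% lower. The largest was Ulk1, at -1.67 in old and -3.18 in young muscle, a difference of 1.51 (SE 0.29, adjusted p = 0.00335). Tfe3 followed, at 1.41 in old and 0.28 in young muscle (difference 1.13, SE 0.28, adjusted p = 0.0142). Atg2b (0.95, SE 0.28, adjusted p = 0.0341) and Atg2a (0.89, SE 0.24, adjusted p = 0.0231) followed, both called lower at day 7 in young muscle and not in old muscle. Atg4a was the exception, with -1.23 in old and -0.42 in young muscle (difference -0.81, SE 0.21, adjusted p = 0.0164).

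Without young uninjured libraries 1 and 3, which enter both this difference and the difference by age in uninjured muscle, 0 of the 41 were called. The share of all genes called in that fit, with fewer young libraries, is not given here. The difference for Ulk1 was then 0.91 (adjusted p = 0.0993) and that for Atg4a -0.90 (adjusted p = 0.0698). With single libraries left out, 2 to 10 were called. The call of Tfe3 ended without young uninjured library 3 (0.93), that of Atg4a without young day 7 library 7 (-0.65), and that of Atg2a without young uninjured library 1 (0.80) or 3 (0.70) or old day 7 library 8 (0.79). The call of Atg2b ended when any one of 7 of the 16 libraries was left out, namely young uninjured 1 or 3, old uninjured 6, 7 or 8, young day 7 library 5 or old day 7 library 10 (0.68 to 0.96).

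At day 35 Lamp2 was still above its uninjured level in both ages. In old muscle 1 of the 41 was called higher and 0 lower, against 3.17% of all genes higher and 2.47% lower. In young muscle 1 was called higher and 8 lower, against 7.06% higher and 8.66% lower. Lamp2 had 131, 134, 139 and 127 CPM in old muscle at day 35, against 90.2, 101, 97.0 and 90.2 CPM uninjured (0.49, SE 0.11, adjusted p = 0.00442). Young muscle had 133, 140, 131 and 146 CPM at day 35, against 98.4, 102, 106 and 110 CPM uninjured (0.40, SE 0.11, adjusted p = 0.00948). Neither pair of groups overlapped.

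In young muscle Optn had 105, 99.4, 98.5 and 83.7 CPM at day 35, against 196, 181, 218 and 167 CPM uninjured (-0.98, SE 0.26, adjusted p = 0.00947). Ulk2 had 132, 177, 172 and 152 CPM at day 35, against 232, 259, 270 and 270 CPM uninjured (-0.70, SE 0.15, adjusted p = 0.00166). Both stayed apart from their uninjured libraries and kept their call whichever single library was left out. Without young uninjured libraries 1 and 3 together, Optn (-0.85, adjusted p = 0.171) and Lamp2 (0.38, adjusted p = 0.129) were no longer called in young muscle. In old muscle the same 2 genes were lower in all 4 libraries of day 35 and did not pass the test, Optn at -0.65 (95% interval -1.18 to -0.13, adjusted p = 0.156) and Ulk2 at -0.44 (-0.74 to -0.14, adjusted p = 0.0829). No member was called in the test of the difference between the ages at day 35, nor any gene (0% of all genes, by edgeR). At an unadjusted p under 0.05 that test had 5 of the 41 and 1690 of all genes (9.87%), DESeq2 called 31 genes and limma voom 1.

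The other lower calls in young muscle were Atg2b (-0.69, adjusted p = 0.017), Ulk1 (-0.60, adjusted p = 0.0471), Sqstm1 (-0.59, adjusted p = 0.0227), Atg4a (-0.52, adjusted p = 0.0152), Uvrag and Atg13. All 6 of these calls ended without young uninjured library 3, and all except that of Atg4a without young uninjured library 1 or young day 35 library 4. Some also ended without young day 35 library 1, 2 or 3. Without both young uninjured libraries 1 and 3, Ulk2 was called lower (-0.74) and Wipi2 higher (0.45, adjusted p = 0.0326), and Ulk1 stood at 0.0014. Scaling by library size shifted the median of all genes by 0.22, and 2 of the 41 were then lower and 3 higher, against 4.13% of all genes lower and 15.1% higher. Of the other lists in young muscle, Gaa (-1.02), Abca2 (-1.29), Npc1 (-1.24) and Plekhm1 (-1.13) were lower, and Vamp8 (0.93) and Ctsh (1.12) higher, and each of these 6 calls was lost without young libraries 1 and 3. In old muscle Laptm4b (-0.53) was lower, and Trp53inp1 (0.63) and Dnase2a (0.74) higher, calls that ended without 3, 5 and 5 of the 8 libraries in turn. Of 6 fibroblast markers, 5 in old and 4 in young muscle were called higher at day 35, and their part in these values was not tested.

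**Figure D5:**
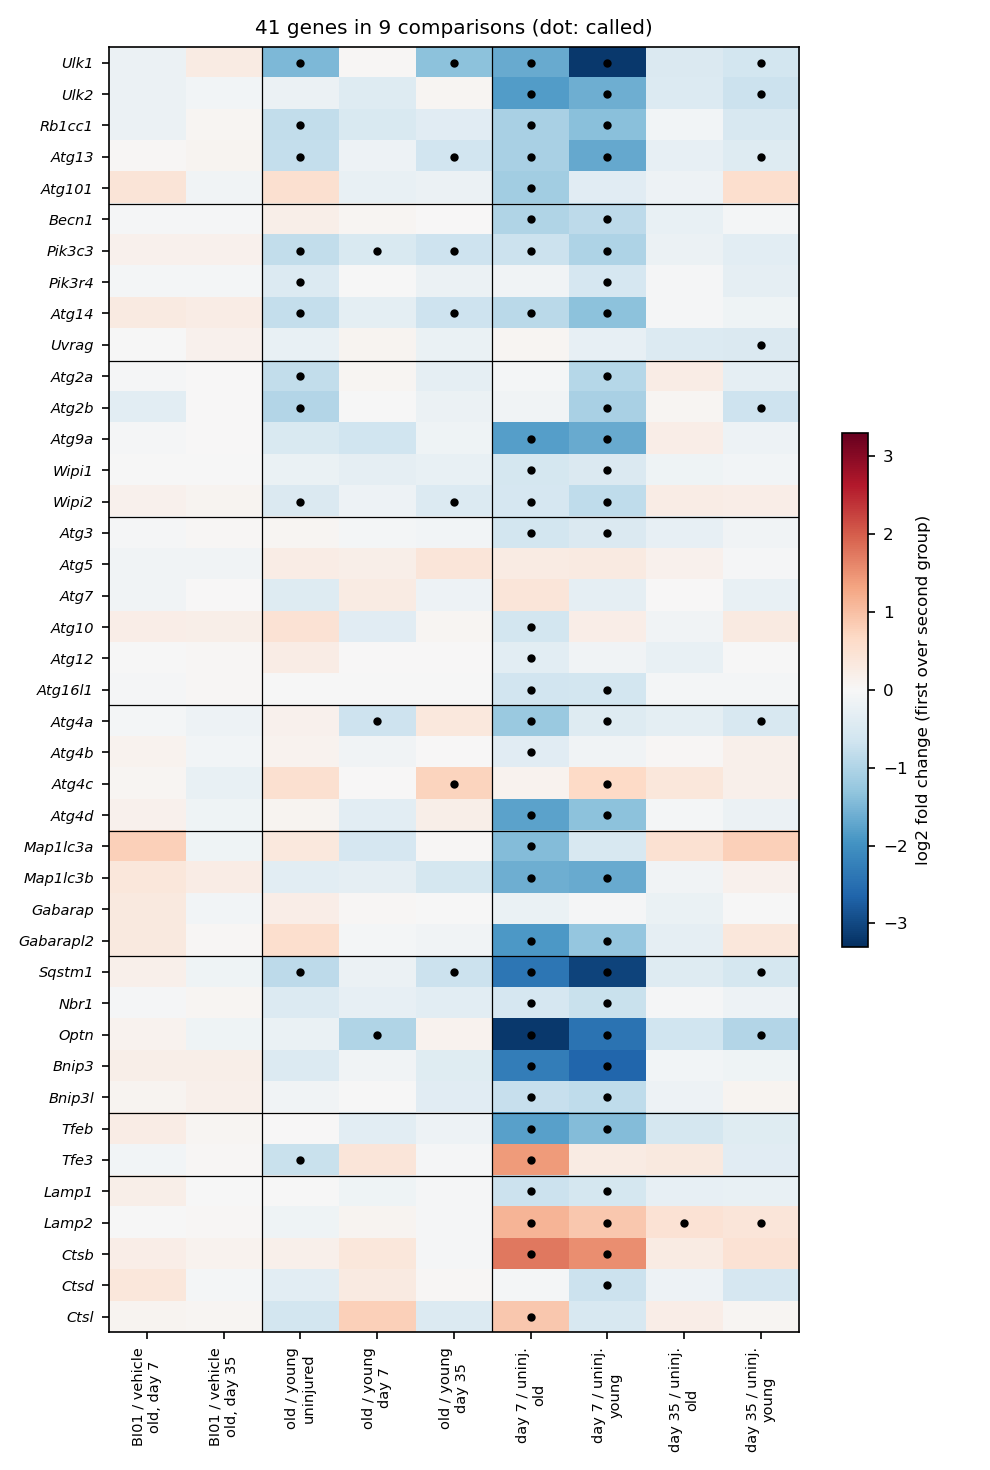
Log2 fold change (colour, the group named first over the other) of the 41 genes, by role, in 9 comparisons with TMM scaling. Dots mark genes called at an adjusted p under 0.05. The columns for day 7 hold 32 dots in old and 30 in young muscle, and the columns for BI01 hold 0. With library size alone the day 7 columns hold 29 in old and 27 in young muscle, more of them higher than lower.

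BI01 was set against vehicle in old muscle at both days. No autophagy or lysosome gene passed the test. At day 7, 0 of the 41 and 0% of all genes were called by edgeR. At an unadjusted p under 0.05 there were 1 of the 41 and 1126 of all genes (6.58%), DESeq2 called 1 gene and limma voom 0. The log2 fold changes of the 41 ran from -0.34 (Atg2b) to 0.78 (Map1lc3a), 22 of them above 0, with a median of 0.06. The 95% interval of a member reached a median of 0.36 to either side of its value.

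Map1lc3a had 99.7, 71.4, 171 and 237 CPM in old BI01 muscle at day 7, against 31.3, 71.2, 195 and 41.4 CPM in old vehicle muscle. The groups overlapped, and library 9 was the highest of the vehicle group (0.78, 95% interval -0.01 to 1.56, adjusted p = 0.741). Without vehicle library 9 the log2 fold change was 1.59 and passed the test (adjusted p = 0.0384). Map1lc3b averaged 87.1 ± 17.8 CPM in BI01 and 67.4 ± 16.7 CPM in vehicle muscle (0.37, adjusted p = 0.741). Sqstm1 averaged 193 ± 36.8 CPM in BI01 and 174 ± 9.36 CPM in vehicle muscle (0.15, 95% interval -0.21 to 0.52). Ctsd averaged 496 ± 189 CPM in BI01 and 382 ± 189 CPM in vehicle muscle (0.38, 95% interval -0.14 to 0.90). Macrophage sums were 1817 to 3240 CPM in BI01 and 1049 to 2750 CPM in vehicle muscle, with 0 of 12 markers called.

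At day 35, 0 of the 41 and 0% of all genes were called by edgeR with BI01. At an unadjusted p under 0.05 there were 0 of the 41 and 530 of all genes (3.1%), and DESeq2 called 12 genes and limma voom 0. Values ran from -0.24 (Atg4c) to 0.27 (Ulk1), and the 95% interval again reached a median of 0.36 to either side. Ulk1 had 155, 121, 109 and 105 CPM in old BI01 muscle, against 106, 101, 83.4 and 115 CPM in old vehicle muscle, and the groups overlapped (95% interval -0.15 to 0.70). Sqstm1 stood at 617 ± 99.8 CPM in BI01 and 676 ± 65.7 CPM in vehicle muscle (-0.13, -0.50 to 0.23). In the test of the BI01 difference at day 35 minus that at day 7, 0 of the 41 and 0% of all genes were called, with 0 of the 41 and 825 of all genes (4.82%) at an unadjusted p under 0.05. DESeq2 called 2 genes and limma voom 0.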

How the data were processed

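Total RNA was extracted with the Qiagen miRNeasy Mini Kit and sequenced as mRNA, per the labels' protocols. The deposited table holds raw counts of reads per gene for 32 libraries; per the submitters' processing notes the authors aligned reads with HISAT2 to mm10, and the counting tool, annotation and strand setting were not given in the sources used here. Without strand, overlapping and antisense genes cannot be told apart. Its columns name a group and a number, which was not matched to a replicate in the labels.

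The members and lists were chosen with earlier results of these data known. From the counts, edgeR 4.0.16 (R 4.3.3) filtered genes with filterByExpr, scaled libraries with TMM and fitted 1 mean per group over all 32 libraries (robust quasi-likelihood). P-values were adjusted over the 17121 genes kept of 54532, and SE is the log2 fold change over the square root of F. Fits were tested on simulated data. The text names, per comparison, up to 6 called members each way by fold change, role markers by value, and up to 3 list genes each way; per-library values of Ctsl were chosen after they were seen. Alternatives were library size alone, 2 other filters (no filter beyond 1 count, or 1 CPM in 4 libraries), limma voom 3.58.1, DESeq2 1.42.0, only the groups compared, each library left out, the replicate number as a block at day 35, and, chosen after seeing the data, young uninjured libraries 1 and 3 left out together. Promoters came from RefSeq (GRCm38.p6), and those on chromosome 18 were not used here. Depth was 14129350 to 30439358 counts per library. Intervals of 95% are for the log2 fold change between group means, from the spread between libraries in the shared fit.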

Additional observations from a re-analysis of the deposited data

Results flagged for a closer look

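The response to injury at day 7 differed between old and young muscle by edgeR's test of the difference itself for 5 of the 41 genes. The difference in log2 fold change, old minus young, was 1.51 for Ulk1, 1.13 for Tfe3, 0.95 for Atg2b, 0.89 for Atg2a and -0.81 for Atg4a. Over all genes, 3.22% were called higher and 4.48% lower, and with 1 library left out 2 to 10 of the 41 were called. None of the 5 passed without young uninjured libraries 1 and 3.

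In 6 of 96 groups of 4 libraries, over 12 genes, 1 library lay far from the other 3; chance gives about 1 in 20. Ulk2 stood at 192.5 CPM in old day 35 library 9. Atg4a stood at 41.65 CPM in young day 7 library 7. Sqstm1 stood at 1214 CPM in young day 35 library 1 and at 1020 CPM in old uninjured library 9. Ctsl stood at 352.8 CPM in old BI01 day 7 library 2 and at 260.5 CPM in young uninjured library 1.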

How the results depend on the processing

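Counts of the 41 genes called moved by more than 1.5 times as follows. Scaled by library size, 0 were called between the ages at day 7, and 2 in old and 5 in young muscle at day 35 against uninjured. With no filter beyond 1 count, 1 was called between the ages at day 7 and 4 at day 35, and 0 in old and 4 in young muscle at day 35 against uninjured. Fitted on only the groups compared, 0 were called between the ages at day 7, 13 between the ages at day 35, 12 in old and 5 in young muscle at day 35 against uninjured, and 1 in the difference of day 7 responses. DESeq2 called 3 in old muscle at day 35 and 8 in the difference of day 7 responses. Of all 17121 genes it called 1279 and 2030 in these comparisons. Without young uninjured libraries 1 and 3, 1 was called between the ages uninjured, 2 at day 35 in young muscle and 0 in the difference of day 7 responses. With 1 library left out, 0 to 1 were called for BI01 at day 7, 0 to 4 between the ages at day 7, 3 to 5 between the ages at day 35, 3 to 13 at day 35 in young muscle and 2 to 10 in the difference of day 7 responses. Shares over all genes are not given here for no filter beyond 1 count, for only the groups compared or with libraries left out. Whether all genes moved alike in these settings is therefore not shown. The cause was not tested.

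Day 7 directions turned positive with library size alone in old muscle for Becn1 (0.0241), Pik3c3 (0.28), Pik3r4 (0.87), Atg2a (0.93), Atg2b (0.88), Atg14 (0.0938), Wipi1 (0.435), Wipi2 (0.45), Atg3 (0.43), Atg10 (0.38), Atg12 (0.65), Atg16l1 (0.38), Atg4b (0.65), Nbr1 (0.42), Bnip3l (0.25), Lamp1 (0.29), Gabarap (0.82) and Ctsd (0.9985). In young muscle they did for Atg101 (0.50), Uvrag (0.62), Atg7 (0.60), Atg12 (0.73), Atg4b (0.76), Becn1 (0.0144), Pik3r4 (0.33), Wipi1 (0.38), Wipi2 (0.0259), Atg3 (0.37), Atg16l1 (0.26), Atg4a (0.45), Nbr1 (0.14), Bnip3l (0.0416), Lamp1 (0.31), Ctsd (0.19), Map1lc3a (0.30), Gabarap (0.85) and Ctsl (0.37). Ctsd in old muscle was at 0.0321 by DESeq2 and from -0.37 to 0.21 with 1 library left out, Gabarap in young muscle from -0.17 to 0.043, and Ulk1 at day 35 in young muscle at 0.0014 without young uninjured libraries 1 and 3.

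The labels do not say that a column number marks an animal. Deviations of day 35 and uninjured libraries with the same number correlated at 0.009 to 0.109 in old and -0.032 to 0.161 in young muscle, and 2 of 4 in old and 3 of 4 in young muscle correlated best with their own number. As a hint from the data and not the design, 3 young pairs (0.161, 0.157 and 0.153) were above every pair of different numbers (at most 0.132), and no old pair was above the highest of different numbers (0.121). With the replicate block, 4 of the 41 were called in old muscle at day 35 (1 without it), 17 in young muscle (9 without it), and 0 in the difference of day 35 responses. The share of all genes called with the block is not given here. Over the genes named in the text, calls and directions held in 182 values by DESeq2 and 176 by limma voom, and calls were lost in 2 and 10. With library size alone 123 held, 31 lost their call and 29 turned sign. With no filter beyond 1 count 157 held and 29 lost their call. Fitted on only the groups compared, 154 held and 28 lost their call. Without young uninjured libraries 1 and 3 together, 48 held and 50 lost their call.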
